A study of Piriqueta cistoides subsp. caroliniana with 18 samples.

Results

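Unnamed probes numbered 5602 to 6120 are soybean cDNA clones on a two-colour array whose identifiers carry a number in that range and that have no entry in the table of probe genes used here. The range held 261 probes. Of these, 10 had no value on any array, 1 had values on fewer than 14 of the 18 arrays, and 32 of the remaining 250 had a gene entry, which left 218 unnamed probes out of 7880 tested and 9600 on the array. The range was drawn around probes with large drought effects in these same data, so the drought effects below are a description and carry no test. Values on all 18 arrays were present for 181 of the 218 (83.0%), against 67.6% of the 7630 tested probes outside the range.

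The arrays were hybridised with leaf RNA of Piriqueta cistoides subsp. caroliniana, a perennial herb, which occurs as a caroliniana and a viridis morphotype that form hybrids; all 3 kinds of plant were used. Each morphotype was kept well-watered or taken through 4 drought cycles over 36 days, with 3 plants in each of the 6 groups. All plants were cuttings rooted in sand in a greenhouse at 35 °C by day and 27 °C by night with a day length of 12 h. Every plant was hybridised with each dye once, on separate arrays, and the 18 arrays close into 1 loop in which 6 arrays pair a drought plant with a well-watered plant of its own morphotype and 12 pair plants of the same treatment. Nothing in the labels says that the plants of a group are separate genotypes. The p-values therefore measure the spread between these plants and their arrays, with a common ratio of plant to array variance for all probes. Every value is a ratio between plants and holds no level, so the leaf label cannot be checked against marker levels.

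Chlorophyll a/b-binding proteins, which the soybean gene CAB3 encodes, hold chlorophyll in the antenna that passes light energy to the photosystems. Their messages are among the most abundant in green leaf tissue, and light, the state of the chloroplast and water supply are known to alter them in many plants. The array held 4 tested CAB3 probes, of which Gm05769, Gm05985 and Gm06115 lie inside the number range and Gm01099 far below it. The unnamed probes have no gene name, role or sequence in the files used here, so none is given, and a likeness of values to CAB3 says nothing about what a clone encodes. Each value rests on Piriqueta RNA binding to a soybean clone, and several clones of 1 gene or gene family can share it, so the probes are not independent of each other.

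Log ratios were read as Cy5 over Cy3, and an effect is drought minus well-watered on that reading. Neither the channel order nor the log base is stated, so the unit of an effect is 1 log ratio of unknown base and the side shared with CAB3 is called positive. The drought effect averaged over the 3 morphotypes was 1.79 ± 0.164 (SE) for Gm05985 and 1.88 ± 0.167 for Gm06115, the CAB3 probes with values on all 18 arrays. It was 2.38 ± 0.446 for Gm05769 on 16 arrays and 3.56 ± 0.519 for Gm01099 on 15. The 4 probes correlated with each other at 0.902 to 0.957 over the arrays, so they gave a common profile, and the mean of the complete pair served as the CAB3 value.

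Averaged over morphotypes, the unnamed probes lay on the positive side as a set, and a minority of them carried large effects. Their median was 0.10 with quartiles of -0.03 and 0.51 and a range of -0.67 to 4.20, against a median of -0.02 outside the range. Of the 218, 151 (69.3%) lay above 0, against 38.8% outside. Effects of 2 or more were found for 10 unnamed probes, 1 to 2 for 20, 0.5 to 1 for 26 and 0.25 to 0.5 for 24. Of the rest, 71 lay between 0 and 0.25, 59 between -0.25 and 0, 7 between -0.5 and -0.25 and 1 below -0.5, so the range also held many probes with little difference between treatments. In all, 11 unnamed probes had a larger effect than CAB3 probe Gm05985. A change in the number of cells of a type and a change in RNA per cell cannot be told apart in these leaf samples.

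A probe is called here where limma's moderated test, adjusted by Benjamini-Hochberg over all 7880 tested probes, gave a value under 0.05. For the averaged drought effect 65 unnamed probes were called, where the background over all tested probes was 1.94% (153 probes). Of the 65, 64 were positive (background 1.50% on that side) and 1 was negative. Since the range was chosen on this effect, the count is a property of the choice. Outside the range 84 probes were called (1.10%). With each plant left out in turn, 51 to 65 of the 65 were still called and all 65 kept their side.

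**Figure D1:**
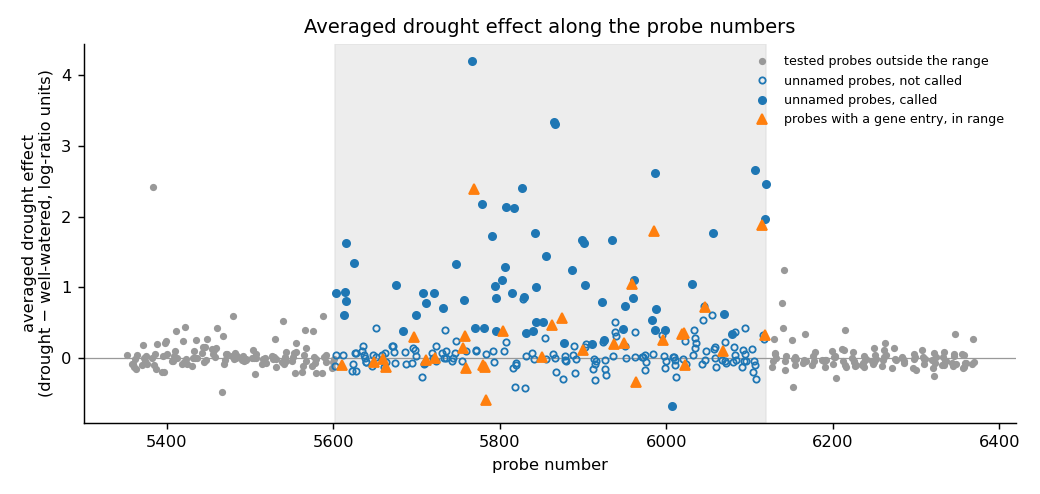
Averaged drought effect (vertical axis, log-ratio units) of each tested probe against its number (horizontal axis), from 250 numbers below to 250 above the shaded range. Filled blue points are called unnamed probes, open blue points the other unnamed probes, orange triangles probes with a gene entry and grey points tested probes outside. The 10 unnamed probes at 2 or more lie between Gm05767 and the upper edge and are mixed with many near 0.

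The positive calls were found along the whole range, but unevenly. In successive stretches of 104 numbers (103 in the last) 9 of 41, 17 of 42, 19 of 45, 12 of 43 and 7 of 47 unnamed probes were called on the positive side. The medians of these stretches were 0.07, 0.14, 0.17, 0.03 and 0.12. In the 250 numbers just below the range 4 of 122 tested probes were called positive, and in the 250 just above it 2 of 112. Just inside the edges, Gm05602 had an averaged effect of -0.11, Gm05603 of 0.04, Gm06118 of 1.96 and Gm06120 of 2.46. Just outside them, Gm05600 had -0.05, Gm05601 (GSTL3, a glutathione transferase name) -0.01, Gm06127 -0.13 and Gm06128 -0.04.

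The largest averaged effect was that of Gm05767, at 4.20 ± 0.573 (SE) on 15 arrays. This is a ratio of 18.3 if the log base is 2 and 66.4 if it is e. Of the 6 arrays that pair the treatments, 3 gave it a value, which was 1.81 for caroliniana drought plant 1 over well-watered plant 2 and 4.43 and 4.93 for the viridis pairs. All 3 were positive, and its hybrid effect of 5.41 came from the other arrays of the loop alone.

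Gm05866, at 3.31 ± 0.278, had values on all arrays and on all 6 that pair the treatments. They were 2.83 and 2.47 in caroliniana, 2.83 and 4.45 in viridis and 4.53 and 2.89 in the hybrid. Estimated per plant and centred on 0 over the 18 plants, Gm05866 stood at 1.20, 1.20 and 1.44 in the caroliniana drought plants, 2.10, 2.44 and 2.63 in the hybrid drought plants and 2.43, 1.36 and 0.17 in the viridis drought plants. The well-watered plants stood at -1.72, -1.18 and -1.60 in caroliniana, -1.57, -1.93 and -1.83 in viridis and -2.19, -0.70 and -2.26 in the hybrid. Drought and well-watered plants did not overlap, and viridis drought plant 3 and hybrid well-watered plant 2 lay nearest to the opposite treatment.

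Its neighbour in number, Gm05865, had 3.34 ± 0.556 on 15 arrays. The other unnamed probes at 2 or more were Gm06107 (2.66 ± 0.319), Gm05987 (2.62 ± 0.352), Gm06120 (2.46 ± 0.279), Gm05827 (2.40 ± 0.263), Gm05779 (2.18 ± 0.241), Gm05808 (2.14 ± 0.247) and Gm05817 (2.12 ± 0.195). Every array that paired the treatments and gave one of these 10 a value was positive. Over all unnamed probes with values on the 6 such arrays, 74 of 208 were positive on every one (35.6%), against 1.84% outside the range.

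The lowest averaged effects were small beside these. Gm06007, the only negative call, had -0.67 ± 0.151, with values of -1.28 and -0.995 on the caroliniana arrays that pair the treatments, -0.81 and 0.06 on the hybrid arrays and -0.03 and -0.70 on the viridis arrays. Its call was lost without any 1 of 8 of the 18 plants. Next came Gm05830 at -0.42, Gm05818 at -0.40, Gm05914 at -0.31 and Gm06108 at -0.30, none of which was called.

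Within the morphotypes the unnamed probes kept the same side, with the hybrid effect usually the largest. The median drought effect of the 218 was 0.06 in caroliniana, 0.09 in viridis and 0.17 in the hybrid, against -0.01, -0.02 and -0.05 outside the range. All 3 effects were positive for 121 of the 218 (55.5%), against 15.3% outside. Calls numbered 32 in caroliniana, all positive, 32 in viridis, 31 of them positive, and 65 in the hybrid, 64 of them positive, where the backgrounds were 0.799%, 0.711% and 2.07%. These contrasts are parts of the effect that chose the range, so nothing is read from the counts.

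The calls within 1 morphotype moved with single plants. With 1 plant left out in turn the caroliniana count ran from 2, without caroliniana drought plant 2 (background 0.0508%), to 53, without hybrid well-watered plant 2 (background 1.36%). It was 6 and 7 without caroliniana well-watered plants 1 and 2 (backgrounds 0.114% and 0.190%). The viridis count ran from 8, without viridis drought plant 2 (background 0.127%), to 45, without hybrid well-watered plant 2 (background 1.10%). It was 9 without viridis well-watered plant 1 or 2 and 12 without viridis drought plant 1, with backgrounds within 0.127% to 1.10%. The hybrid count ran from 35, without hybrid well-watered plant 1 (background 0.774%), to 94, without hybrid well-watered plant 2 (background 14.6%). The calls over all tested probes thus moved with the same plants, and by more than the count of unnamed probes in the hybrid.

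Among the 64 positively called probes the median effect was 0.80 in caroliniana, 0.81 in viridis and 1.22 in the hybrid, and the hybrid effect was the largest of the 3 in 62 of them. In the 50 probes called positive outside the range these medians were 0.66, 0.66 and 1.17, and the hybrid effect was the largest in 45. Of the 64, 27 were called in each morphotype, as were 46 of all 7880 tested probes, and 24 in the hybrid alone, as were 98 of the 7880. The 3 effects of Gm05817 were 1.66 ± 0.278 (SE), 1.78 ± 0.279 and 2.91 ± 0.281 in the same order. Those of Gm06107 were 2.08, 2.45 and 3.45, and those of Gm05865 were 2.22, 2.94 and 4.86.

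**Figure D2:**
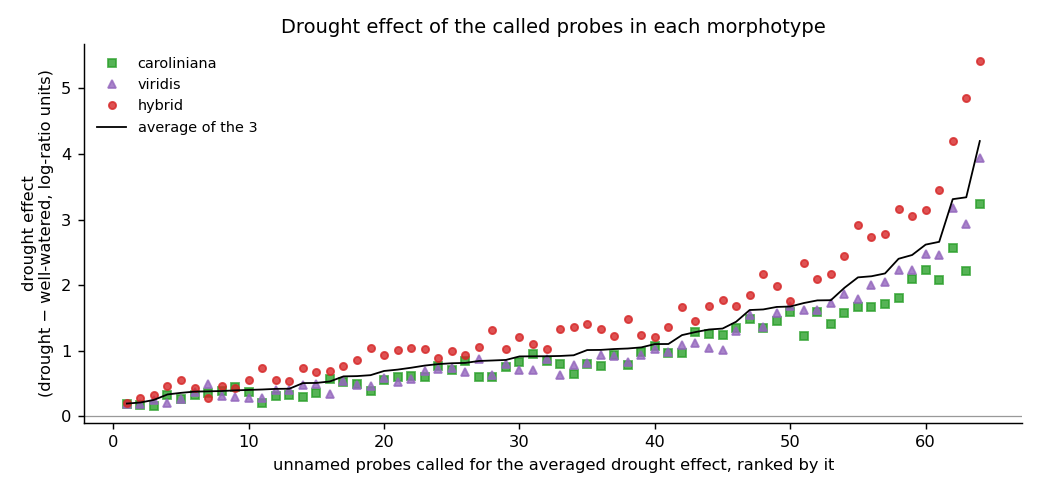
Drought effect (vertical axis, log-ratio units) in caroliniana (green squares), viridis (purple triangles) and the hybrid (red circles) of the 64 positively called unnamed probes, ranked by their average (black line, horizontal axis). The hybrid point is the highest in 62 of the 64.

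Whether the drought effect differs between morphotypes was not used to choose the range and was tested. No unnamed probe, and no tested probe at all (0.00%), was called for the interaction (F test of limma's moderated fit). At an unadjusted p under 0.05 there were 25 unnamed probes (11.5%; background 2.35%), against 2.06% of the tested probes outside. The hybrid effect minus the mean of the parents' effects likewise gave 0 calls (background 0.00%), and 40 unnamed probes at an unadjusted p under 0.05 (background 5.47%), 38 of them with the larger effect in the hybrid, against 5.03% outside. This difference had a median of 0.13 and lay above 0 in 163 of the 218 unnamed probes (74.8%), against 38.9% outside. Among positive calls of the averaged effect its median was 0.37 for the 64 inside and 0.50 for the 50 outside. It lay above 0 in 63 and 48 of them. The caroliniana effect minus the viridis effect gave 0 calls (background 0.00%), with 3 unnamed probes at an unadjusted p under 0.05 (1.38%; background 1.03%) against 1.01% outside.

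The unnamed probe with the smallest interaction p was Gm05817, whose hybrid effect exceeded the mean of the parents' by 1.19 ± 0.30 (SE). Its adjusted p in limma's moderated test was 0.998 for the interaction and 0.771 for the hybrid against the parents. The other 4 with the smallest p were Gm05676, with a hybrid excess of 0.67 ± 0.182, Gm05948 with 0.50 ± 0.148, Gm05950 with 0.28 ± 0.0789 and Gm05891 with 0.17 ± 0.0846. Gm05891 stood apart from the others in that its caroliniana effect lay 0.28 above a viridis effect of -0.40. Their adjusted p for the interaction was also 0.998, and none of these differences held up against the spread between plants and arrays after adjustment.

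These 0 counts rested on 1 plant. Without hybrid well-watered plant 2, 35 unnamed probes were called for the interaction (background 1.76%) and 62 for the hybrid against the mean of the parents (background 5.75%), 61 of them with the larger effect in the hybrid. The hybrid effect was the largest of the 3 in all 35, and 24 of the 35 and 37 of the 62 were also among the 64 positive calls of the averaged effect. The hybrid excess of the 62 had a median of 0.79 and a range of -0.39 to 1.92, and over all 218 its median was 0.20 in place of 0.13. In limma's moderated test without that plant, Gm06107 had an excess of 1.92 ± 0.184 (SE, adjusted p 2.0e-04), Gm05625 of 1.22 ± 0.122 (2.0e-04), Gm05828 of 1.21 ± 0.148 (7.7e-04) and Gm05794 of 0.87 ± 0.108 (7.7e-04). For Gm05817 the excess was 1.54 ± 0.279 (adjusted p 0.00738). These first 4 had the smallest p without the plant and were picked after their values were seen.

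**Figure D3:**
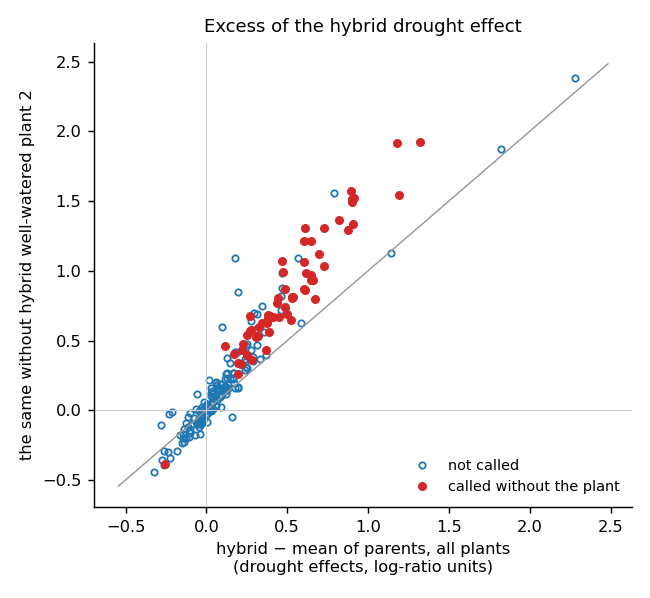
Hybrid drought effect minus the mean of the parents' effects (log-ratio units) of the 218 unnamed probes, with all plants (horizontal axis) and without hybrid well-watered plant 2 (vertical axis). Red points are the 62 called without that plant. They lie above the grey line of equal values, apart from 1 below 0, and none was called with all plants.

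The plant that decides these counts lay between the treatments for the unnamed probes. Over the 59 positively called unnamed probes with values on all arrays, the median plant value in the well-watered hybrids was -0.87 in plant 1, -0.07 in plant 2 and -0.57 in plant 3. The drought hybrids stood at 0.82, 0.36 and 0.63. On a scale where the mean of the other well-watered plants of its morphotype is 0 and that of the drought plants is 1, well-watered plant 2 had a median position of 0.527 over the 59 probes, with a range of -1.0 to 1.18, and 31 of the 59 were at 0.5 or more. On the same scale the complete CAB3 probes put that plant at 0.271 and -0.0194, nearer to the well-watered state. Whether the plant, its RNA or its arrays set it apart was not tested.

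A second plant stood between the treatments in the opposite sense. Viridis drought plant 3 had a median over the 59 probes of 0.06, below the 0.38 and 0.25 of the other viridis drought plants and above the well-watered ones at -0.45, -0.39 and -0.59. Its median position was 0.680, with a range of 0.04 to 3.26, and 40 of the 59 probes were at 0.5 or more, while the CAB3 probes put it at 0.145 and 0.133. In CAB3 the 3 viridis drought plants stood at 1.38, 0.88 and -0.68, and the plant with the lowest value lay inside the range of the well-watered plants. One of its arrays is marked BAD in its title, and without that array 65 of the 65 calls remained. In these 2 plants, then, the called unnamed probes lay farther towards the drought state than CAB3 did.

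**Figure D4:**
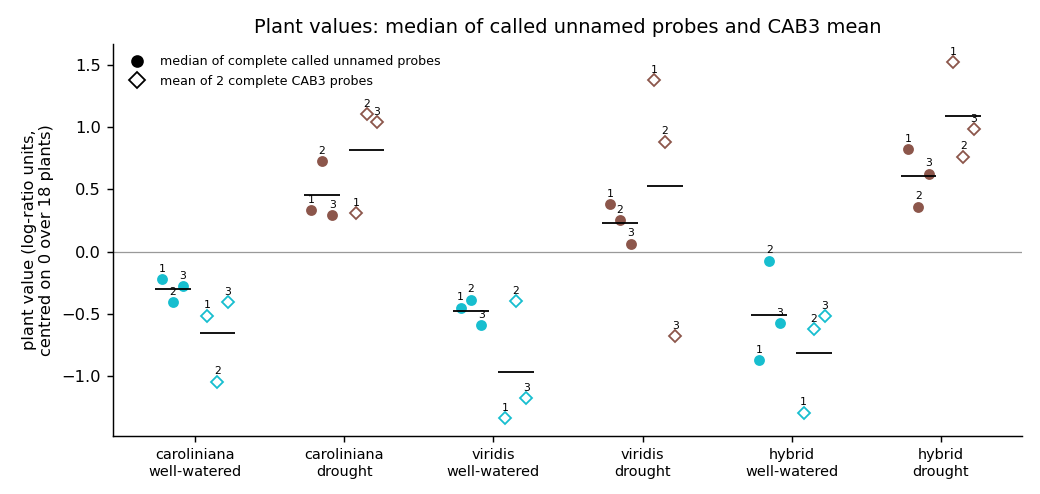
Plant values (vertical axis, log-ratio units centred on 0 over the 18 plants) in the 6 groups. Filled circles are the median of the 59 complete called unnamed probes, open diamonds the mean of the 2 complete CAB3 probes, small digits the plant number and bars the group mean. Drought and well-watered plants do not overlap within a morphotype in the 59 probes, which were called for this very difference, so the separation carries no test. Viridis drought plant 3 lies among the well-watered plants in CAB3.

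By group, the median over the 59 probes was 0.45 ± 0.238 (SD, n = 3) under drought and -0.30 ± 0.0957 in well-watered plants of caroliniana. It was 0.23 ± 0.159 and -0.48 ± 0.106 in viridis and 0.60 ± 0.232 and -0.51 ± 0.405 in the hybrid. The SD of the well-watered hybrids was the widest of the 6 groups, with plant 1 lowest and plant 2 highest.

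Over both treatments, neither comparison between morphotypes called an unnamed probe. For caroliniana against viridis, 0 of 218 were called (background 0.00%), and 9 had an unadjusted p under 0.05 (4.13%; background 3.76%), against 3.74% outside. The median difference was 0.05, with 142 of 218 above 0. The smallest p was that of Gm06023, higher on the positive side in caroliniana by 0.34 ± 0.0969 (SE, adjusted p 0.855 in limma's moderated test). Gm05614 had 0.32, Gm05676 0.30, Gm05950 0.13 and Gm05709 -0.13, and none of these passed the threshold.

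For the hybrid against the mid-parent value, 0 of 218 were called (background 0.00%), and 24 had an unadjusted p under 0.05 (11.0%; background 6.07%), against 5.85% outside. The median difference was 0.04, with 133 above 0. Among the 5 with the smallest p were Gm05865 with 1.11 ± 0.340 (SE), Gm05866 with 0.79 ± 0.263, Gm06118 with 0.52 ± 0.159 and Gm05842 with 0.43 ± 0.143, all on the positive side, and Gm05755 with -0.26 ± 0.0772. Their adjusted p in limma's moderated test was 0.760. Gm05865, Gm05866, Gm06118 and Gm05842 are also among the probes closest to CAB3 or largest under drought, so these differences and the drought effects concern the same few probes.

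Each plant was labelled once with each dye, so the fit also gives the part of a ratio that stays with the dye. This dye intercept, a property of the labelling and not of the plants, was called for 27 of the 218 (12.4%; background 29.9%), 13 on one side and 14 on the other, against 30.4% outside. The difference between these shares was not tested.

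How far the unnamed probes followed CAB3 was described by Pearson's correlation of each probe with the CAB3 mean over the 18 arrays, which share plants and are not independent. The median over the 218 was 0.354, against -0.112 outside. A correlation of 0.9 or more was reached by 26 (11.9%; outside 0.157%), of 0.7 or more by 69 (31.7%; outside 0.813%) and of 0.5 or more by 92, while 69 lay below 0. The 64 positively called probes had a median of 0.878, and 58 of them reached 0.7. The 153 unnamed probes that were not called had a median of 0.0776. The 50 probes called positive outside the range had a median of 0.794, and 39 of them reached 0.7. All these arrays include the 6 that pair the treatments, so the difference between treatments enters these correlations.

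The closest to CAB3 was Gm06118, which lies 3 numbers above CAB3 probe Gm06115, with a correlation of 0.985. Gm05842 followed with 0.980, Gm05866 with 0.967, Gm05829 with 0.965 and Gm05615 with 0.964. Gm06118 and CAB3 also stayed close plant by plant. Gm06118 stood at 1.42, 0.95 and -0.48 in the viridis drought plants, where CAB3 had 1.38, 0.88 and -0.68, so it shared the low value of viridis drought plant 3. The slope on CAB3 was 1.05 for Gm06118, 0.43 for Gm05829 and 1.95, the steepest, for Gm05767. At the other end Gm05707 had a correlation of -0.778, Gm05602 of -0.658 and Gm05999 of -0.601, with averaged drought effects of -0.27, -0.11 and -0.14.

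The 12 arrays that pair plants of the same treatment carry no difference between drought and well-watered plants within them. They do pair different morphotypes, so a drought effect that differs between morphotypes can still enter their values. Over the 12 arrays the median correlation with CAB3 was 0.329 for the 218 and -0.136 outside. Of the unnamed probes, 41 (18.8%) reached 0.7, against 2.44% outside. The 64 called probes had a median of 0.705, with 32 at 0.7 or more and 9 below 0. The 50 positive calls outside had a median of 0.575, with 16 at 0.7 or more and 8 below 0. Part of this correlation within a treatment rested on the 2 plants between the treatments. Over the 9 same-treatment arrays left without both, the median of the 218 was 0.204. Of the 218, 17 reached 0.7 (7.80%), against 1.19% outside, and 14 of the 64 called probes did. Over all 14 arrays left without both, the median of the 218 was 0.388, not lower than with all plants. There 69 of the 218 reached 0.7 (31.7%), against 0.931% outside, and 62 of the 64 called probes did. In the residuals of the fit the group means and the dye were taken out, but the deviation of each plant from its group was not. The median correlations with CAB3 in these residuals were 0.139 for the 218, 0.407 for the 64 and -0.0293 outside. The 50 positive calls outside had a residual median of 0.346. Without both plants the residual median of the 218 was -0.0734.

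**Figure D5:**
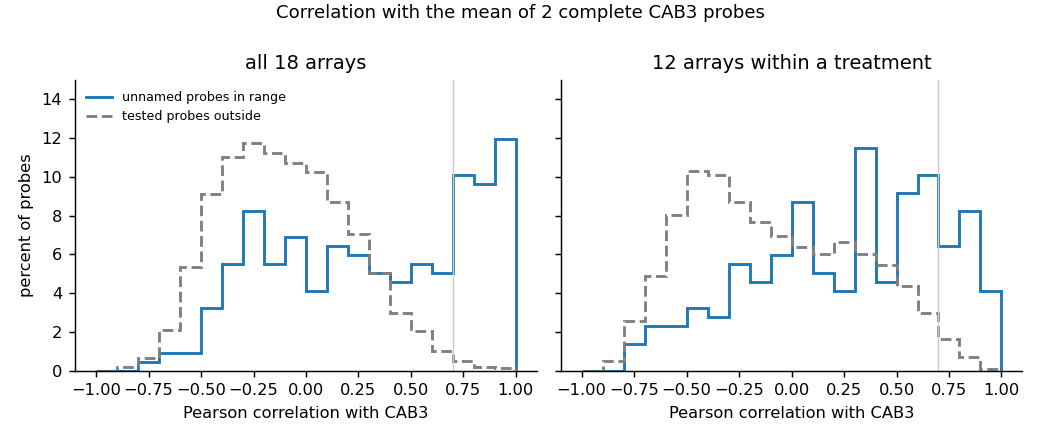
Percent of probes (vertical axis) by their correlation with the CAB3 mean (horizontal axis, steps of 0.1), over all 18 arrays (left) and over the 12 arrays that pair plants of the same treatment (right). The blue line is the 218 unnamed probes, the dashed grey line the tested probes outside the range. Of the unnamed probes 31.7% lie at 0.7 or more on the left and 18.8% on the right.

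The strongly affected unnamed probes did not all follow CAB3 within a treatment. Gm05987 and Gm06120, 133 numbers apart, correlated with each other at 0.985 over 18 arrays and at 0.947 over the 12. With CAB3 they correlated at 0.738 and 0.745 over the 18 arrays, but at -0.0686 and -0.0615 over the 12. Gm06118, 2 numbers from Gm06120, kept 0.963 over the 12, and Gm05866 kept 0.966.

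The plant values show where they parted. Gm05987 stood at 0.66, 1.49 and 1.69 in the viridis drought plants and Gm06120 at 0.86, 1.5 and 1.04, with no low value in plant 3, where Gm06118 was at -0.48. In the caroliniana drought plants Gm05987 stood at 0.20, 2.41 and 1.31 and Gm06120 at 0.36, 2.28 and 1.33, with plant 1 far below plant 2. In the well-watered hybrids both stood near -3 in plant 1, at -3.24 and -3.09, against -0.46 and -0.42 in plant 2 and -1.65 and -1.82 in plant 3.

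Over the 12 arrays, 11 of the other 62 positively called probes correlated at 0.7 or more with the mean of Gm05987 and Gm06120. With CAB3, 32 of the 62 did so. Among the 11 were Gm06079 (0.868), Gm05708 (0.857), Gm05732 (0.835), Gm05757 (0.834) and Gm05721 (0.830), whose own correlations with CAB3 were -0.158, -0.0457, 0.0853, -0.105 and 0.109. The mean of the pair and CAB3 correlated at -0.0659. At that value a probe with values on all 12 arrays cannot reach 0.7 with both. None did, so the lack of overlap carries no result. Without viridis drought plant 3 the counts were 20 and 23, and without it and hybrid well-watered plant 2 they were 23 and 14. The number on each side thus depended on those plants, while the correlation between the pair and CAB3 was 0.0693 and 0.0168 in these settings. These values leave little room for 0.7 with both, and no probe reached it. The pair was singled out after its values were seen, so this is a description.

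Mutual correlation was weak over all pairs of the 218 and high among the called probes. Over 18 arrays the 23653 pairs had a median of 0.144, with 13.1% at 0.7 or more and 38.4% below 0. In runs of the same number of tested unnamed probes just below and just above the range the medians were 0.0116 and 0.164, and 2.87% and 4.27% of pairs reached 0.7. The 2016 pairs of positively called probes had a median of 0.839, with 83.6% at 0.7 or more and none below 0. Pairs of unnamed probes neither of which was called positive had a median of 0.0672. Among the called probes a shared drought effect enters every pair, and over the 12 arrays of the same treatment their median was 0.652 and in the residuals 0.536, against 0.199 and 0.166 over all pairs.

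The correlation of a pair differed little with nearness in number. Pairs 1 to 5 numbers apart had a median of 0.189, pairs 6 to 50 apart 0.154, pairs 51 to 200 apart 0.163 and pairs more than 200 apart 0.118. Correlations of 0.7 or more were found in 17.9% of pairs 1 to 5 apart and 10.8% of those more than 200 apart. Among called probes the median was 0.861 for the 43 pairs 1 to 5 apart and 0.839 for the 600 pairs more than 200 apart. Over the 12 arrays of the same treatment these 2 medians were 0.760 and 0.644, and in the residuals 0.529 and 0.584. The closest pairs were Gm05625 with Gm05721 (0.992, 96 numbers apart), Gm05855 with Gm06056 (0.989, 201 apart), Gm05779 with Gm05808 (0.989, 29 apart), Gm05767 with Gm05827 (0.988, 60 apart) and Gm05842 with Gm06118 (0.987, 276 apart). Probes with all but the same profile thus lay far apart in number. The first principal component held 43.2% of the variance of the complete unnamed probes, each scaled to unit variance, and 82.9% of that of the 59 called ones.

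Of the 32 tested probes inside the range that have a gene entry, 4 were called for the averaged drought effect, namely the 3 CAB3 probes and Gm05863 (LOC547820), all positive. The median of the 32 was 0.17, between that of the called and the other unnamed probes. Gm06047, for CHLH, the subunit of magnesium chelatase that binds the porphyrin on the way to chlorophyll, had 0.72 ± 0.181 (SE) and was not called, while the CHLH probe just above the range, Gm06139, had 0.77 ± 0.0992 and was called. Gm06019, for PSAD, a subunit of photosystem I that docks ferredoxin, had 0.34 ± 0.0883 and was not called, and the PSAD probe Gm10356 far outside had -0.09 ± 0.0629. The chlorophyll synthesis genes GSA1 (Gm17519, -0.03 ± 0.0606) and HEMB (Gm17841, -0.22 ± 0.0834), also outside, were not called. Of the 10 tested probes for CAB3, CHLH, PSAD, GSA1 and HEMB, 5 were thus called, all positive (background 1.50% on that side), and 4 of the 5 are the CAB3 probes, which share a profile.

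The probes outside the range whose values were most like the median of the unnamed probes over the 18 arrays were Gm16316 (correlation 0.936), Gm07967 (0.930) and Gm13377 (0.926), which have no entry. With an entry, the closest were Gm03466 (LOC548073, 0.914) and Gm08062 (0.903), a probe for CYP98A2, a cytochrome P450 that hydroxylates phenylpropanoid intermediates. The median of the unnamed probes itself correlated with CAB3 at 0.731 over 18 arrays and 0.638 over the 12, and that of the positively called ones at 0.925 and 0.799. Probes with this profile were thus also present at distant numbers, while those at 0.7 or more with CAB3 made up 31.7% inside the range and 0.813% outside. Among positive drought calls they made up 90.6% of the 64 inside and 78% of the 50 outside. Following CAB3 was thus not particular to the called probes of this range.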

How the data were processed

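The deposited values are log ratios of the 2 channels per probe and array, entered under the unit log2 only as a log scale, since base 2 and base e cannot be told apart. Per the labels, plants were labelled with Cy3 and Cy5. The authors' normalisation, the base and the channel order are not given in the sources used here. Values span too wide a range for base 10. Channel intensities were not analysed here, and the number of arrays limits the precision. Between 5892 and 7848 tested probes had a value per array.

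Each probe with values on at least 14 of 18 arrays entered a generalised least squares fit with 6 group means and a dye term, in which plants vary at random (variance ratio of plants to arrays 0.25). Missing values were not filled in. Tests used limma 3.58.1 in R 4.3.3 (moderated, two-sided, prior df 3.95, residual df 12, Benjamini-Hochberg over 7880 probes, threshold 0.05), and the fit was tested on simulated data. The estimates tested for the range correlated with the averaged drought estimate at -0.031 to 0.0135. Figures used matplotlib 3.10.9 in Python 3.11.15.

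The members, the gene list (CAB3, PSAD, CHLH, HEMB, GSA1) and the alternatives were chosen with earlier results of these data known. Named unnamed probes are the 10 highest and 5 lowest averaged effects, the 5 smallest p of the interaction and of each morphotype comparison, the 5 highest and 3 lowest correlations with CAB3, the 2 on each side of each edge, and those said to be picked later. Outside them, the 10 probes most like the members' median were eligible. Plant numbers 1 to 3 did not pair plants (9 same-numbered pairs correlated at -0.533 to 0.600, 2 of them over 0.1).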

Additional observations from a re-analysis of the deposited data

How the results depend on the processing

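Each count and median was recomputed under 10 other settings and with each plant left out. With both viridis drought plant 3 and hybrid well-watered plant 2 removed, 54 unnamed probes were called in caroliniana (background 1.38%), 24 for the interaction (1.59%) and 49 for the hybrid against the parents (5.14%), and the median correlation with CAB3 over arrays of the same treatment was 0.204. With the sign turned on 1 array, which pairs hybrid plant 2 with viridis plant 3, both well-watered, 8 were called for the interaction (background 0.457%), 34 for the hybrid against the parents (1.79%) and 5 for the dye (8.77%). The dye count was 10 with arrays treated as independent (21.0%) and 14 over complete probes only (14.8%). The median mutual correlation was 0.227 with arrays centred on their medians. The causes were not tested. No called probe changed side. Near 0, the averaged effects of Gm05600, Gm05601, Gm05603 and Gm06128 changed sign with single plants left out (-0.15 to 0.06, -0.08 to 0.04, -0.03 to 0.15 and -0.08 to 0.02), as did that of Gm05601 with arrays centred or scaled or both plants removed. The median residual correlation with CAB3 turned to -0.0734 with both plants removed and to -0.0160 and -0.00738 with Gm05769 and Gm06115 alone in place of the CAB3 mean.

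With each plant left out in turn, calls ran from 52 to 81 for the averaged drought effect (backgrounds 1.27% to 4.65%), 2 to 53 in caroliniana (0.0508% to 1.36%), 8 to 45 in viridis (0.127% to 1.10%), 35 to 94 in the hybrid (0.774% to 14.6%), 0 to 35 for the interaction (0.00% to 1.76%), 0 to 62 for the hybrid against the parents (0.00% to 5.75%), 0 to 1 for the hybrid against the mid-parent (0.00% to 0.0381%), 0 to 0 for caroliniana against viridis and 12 to 34 for the dye (21.7% to 36.6%). The median correlation with CAB3 ran from 0.253 to 0.427, and the median mutual correlation from 0.124 to 0.168. With the replicate block for plant number, 71 were called for the averaged drought effect (background 2.23%) and 0 for the interaction, and the block changed no call of the 65. With single CAB3 probes in place of the mean the median correlation was 0.200 to 0.375. Signal over background is unknown, so what depth limits cannot be given.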
